A study of Mus musculus with 8 samples.

Results

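Retinoid handling and response in differentiating mouse embryonic stem cells was followed through 9 genes, picked by name with earlier results of these data known. These were the retinoic acid receptor genes Rara, Rarb and Rarg and the carrier genes Crabp1 and Crabp2. The others were the enzyme genes Aldh1a2, Dhrs3 and Cyp26a1, and the response gene Nr2f2. All 9 were found by symbol among 21069 features measured at day 5 and among 19011 genes measured at day 0. The data are poly(A)-selected RNA-seq libraries of 46C cells, a stem cell line with a fluorescent reporter in the neural gene Sox1, labelled as strain C57BL/6. There were 8 libraries, 1 for each of 8 groups. Wild type cells (WT), LincNDIME_KO cells (KO), and cells labelled shCtrl and shMef2c, read here as carrying a control hairpin and a hairpin against Mef2c, were each profiled at day 0 and at day 5. NDIME is a long noncoding RNA named in the study's title beside Mef2c, a transcription factor gene, in an axis of neural differentiation. Day 0 cells were kept as stem cells in serum and leukemia inhibitory factor on irradiated mouse embryonic fibroblasts, so those libraries can hold fibroblast RNA. Day 5 cells are labelled as neural progenitor cells and came from aggregates grown in serum replacement medium, whose labelled ingredients include no retinoic acid. Whether the KO or a hairpin line is 1 clone, and which promoter drives the hairpins, was not stated in the labels.

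Retinoic acid is made from retinol by sequential oxidation. Aldh1a2 encodes the dehydrogenase that forms it in the embryo, Dhrs3 a reductase that returns retinal to retinol, and the Cyp26 enzymes hydroxylate retinoic acid for removal. Inside the cell it is carried by CRABP1 and CRABP2 and acts through the nuclear receptors RARA, RARB and RARG, which bind DNA as pairs with RXR proteins. In the neural tube, retinoic acid posteriorizes hindbrain and spinal cord and promotes neuronal differentiation, and Cyp26a1 and Rarb are textbook direct targets of its receptors.

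With 1 library a group there is no spread between replicates, no test and no p-value. Levels are given as deposited (FPKM at day 5, RPKM at day 0, both scaled for transcript length and library size). Ratios are log2((value + 1)/(value + 1)), for genes averaging at least 1 in the compared pair, and a gene counts as apart from 2-fold on. Reads assigned to genes came to between 25996204 and 26834802 per library at day 5 and between 20312032 and 20883674 at day 0. Mef2c itself was scarce. At day 5 it stood at 0.45 FPKM in WT, 0.10 in KO, 0.50 in shCtrl and 0.12 in shMef2c. At day 0 it was higher in the library labelled shMef2c (0.37 RPKM, 44 reads) than in shCtrl (0.16, 20 reads), against the label. The sum of 8 fibroblast markers was also higher in that library (345.9 RPKM against 210.8). The part of fibroblast RNA in this Mef2c difference was not tested. The labelled cell types carried their markers to unequal degrees at day 5. The summed FPKM of 6 neural progenitor markers (Sox1, Pax6, Nes, Fabp7, Hes5, Msi1) was 326.7 in WT and 385.7 in shCtrl but 92.9 in KO and 41.8 in shMef2c, with none of the 6 at 0 in any library. The KO sum was low mostly through Fabp7 (29.95 against 173.67 in WT). Nes (11.79 against 45.69), Hes5 (4.47 against 23.32) and Msi1 (26.53 against 56.26) were lower in KO as well. Sox1 (12.05 against 15.76) and Pax6 (8.15 against 11.99) were nearer to WT. The sum of 4 neuron markers was 169.2 in WT, 177.3 in KO, 262.3 in shCtrl and 53.4 in shMef2c. That the KO sum was not below the WT sum rested on Tubb3 (148.48 in KO against 108.99). Nefl (19.30 against 46.84), Elavl3 (6.08 against 9.79) and, by little, Dcx (3.47 against 3.63) were lower in KO. The sum of 7 naive pluripotency markers was 289.0 and 205.2 in WT and shCtrl, and 599.4 and 796.5 in KO and shMef2c. For 6 visceral endoderm markers the sums were 8.6 (WT), 105.7 (KO), 58.2 (shCtrl) and 14.9 (shMef2c). In KO all 6 were above WT, whereas the shCtrl sum came mainly from Rbp4 (30.19) and Apoa1 (22.14), with Afp at 0.36 and Cubn at 0.56. For 4 mesoderm markers they were 45.6, 3.3, 40.8 and 127.0 in the same order. In such bulk libraries fewer cells of a type and less RNA per cell cannot be told apart, and the part of these marker differences in the results below was not tested.

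The promoters of Rarb and Cyp26a1 are shown first because they carry the letters through which retinoic acid receptors are known to bind. Promoter windows from RefSeq (build GRCm38.p6, 250 bases before to 50 after a start site) were matched for 8 of the 9 genes, giving 14 windows. They were searched on both strands for 2 half-sites in the same orientation, each either AGGTCA or its variant AGTTCA, or else GGGTCA or its variant GGTTCA, with 5, 2 or 1 bases between them (DR5, DR2, DR1). A DR5 was found in the windows of Rarb and Cyp26a1, and neither a DR2 nor a DR1 in any of the 14. Over all 32851 windows of 300 bases, 32 (0.0974%) held a DR5, 0.268% a DR2 and 0.222% a DR1. The stretch before each start site is printed along the gene's strand, with the half-sites in capitals. The Rarb stretch is chr14:16575477-16575626, reverse strand, and the Cyp26a1 stretch is chr19:37697658-37697807, forward strand.
Rarb: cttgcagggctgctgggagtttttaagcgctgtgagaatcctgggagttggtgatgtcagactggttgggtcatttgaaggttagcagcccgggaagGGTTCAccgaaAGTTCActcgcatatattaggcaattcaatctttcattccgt
Cyp26a1: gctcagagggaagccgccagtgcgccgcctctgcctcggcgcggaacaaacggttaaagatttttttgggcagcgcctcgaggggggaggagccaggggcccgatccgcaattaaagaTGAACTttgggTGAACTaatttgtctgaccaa
The Cyp26a1 match lies on the other strand of the gene. Written along the strand of their half-sites, the matches are 17 bases long, and 15 of these are identical.
Rarb site: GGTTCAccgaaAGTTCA
Cyp26a1 site: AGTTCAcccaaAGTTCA
Counted from 1 at the 5′ end, with the Rarb base first, the differences are G1A and G9C. These letters describe the windows and not binding in these cells. Of the 31 genes with a DR5 in a window, 3 passed the filter in KO over WT and 5 in shMef2c over shCtrl, and among these only Rarb for shMef2c over shCtrl differed by 2-fold or more.

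**Figure D1:**
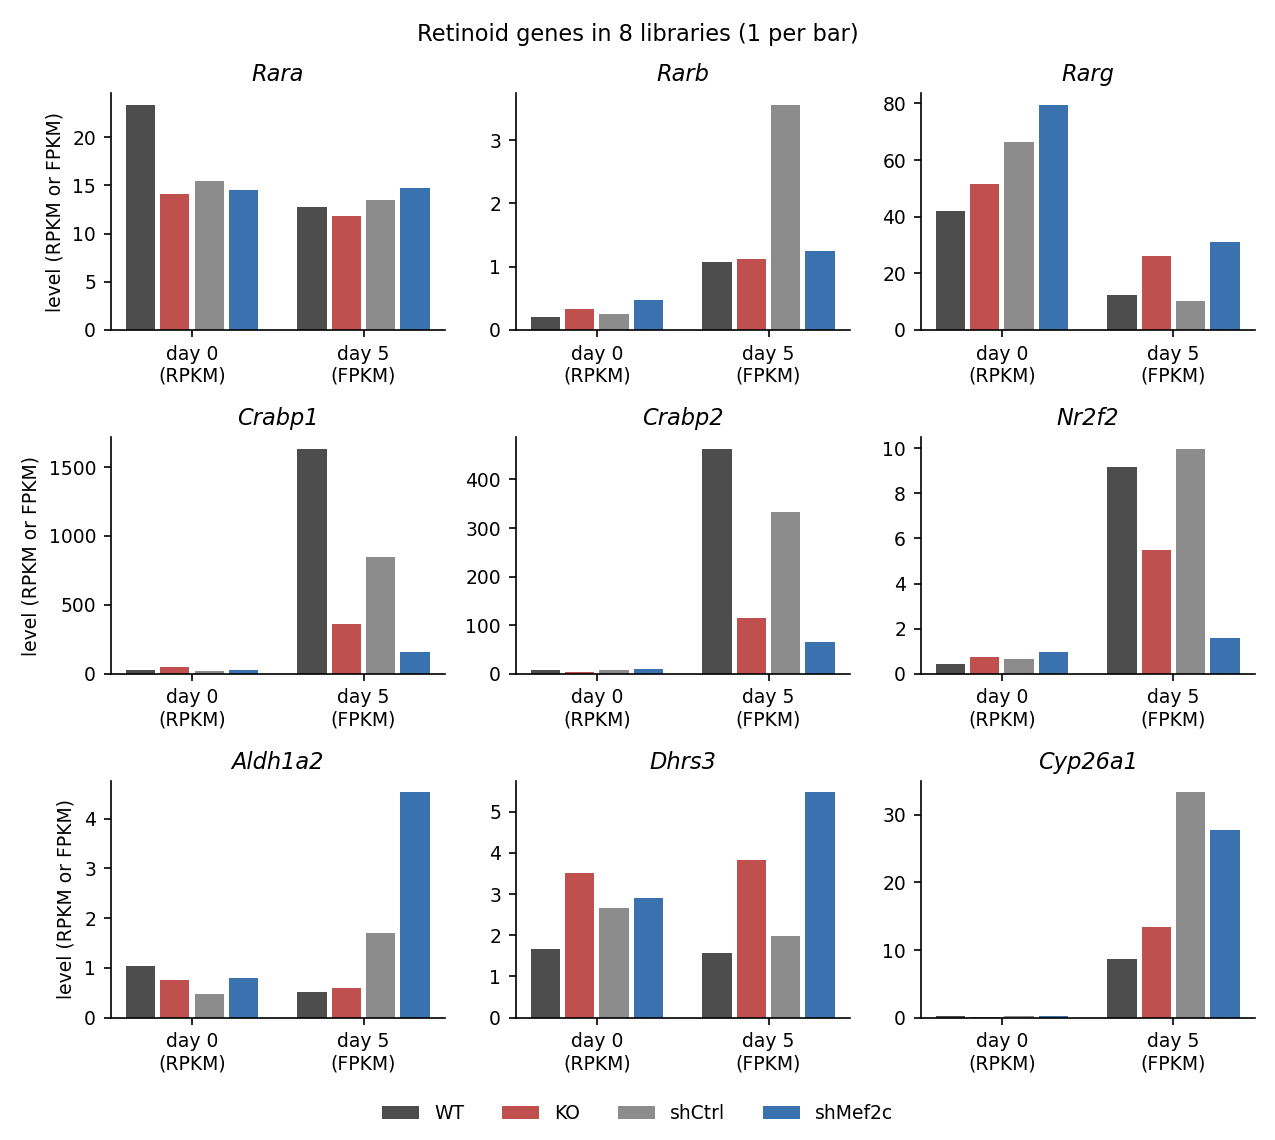
Level of each of the 9 retinoid genes (vertical axes, RPKM at day 0 and FPKM at day 5, each panel with its own scale) in the 8 libraries, 1 bar a library. Crabp1, Crabp2 and Cyp26a1 stood higher at day 5 than at day 0 in every line, and Crabp1 and Crabp2 were lower in KO and shMef2c than in WT and shCtrl at day 5.

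Among the receptors, Rarg was the gene that separated the perturbed from the control lines at day 5. Rarg stood at 12.24 FPKM in WT, 10.29 in shCtrl, 26.08 in KO and 31.13 in shMef2c. Both perturbed libraries lay above both control libraries, as for 26.3% of 12974 features, and with a gap of 2-fold or more, as for 1.34%. KO over WT gave a log2 ratio of 1.03 and shMef2c over shCtrl 1.51, against -0.23 between the control libraries (shCtrl over WT). As a ratio of read shares, KO over WT was 2.12, with an exact (Clopper-Pearson) 95% interval of 1.96 to 2.30, and shMef2c over shCtrl was 3.02 (2.77 to 3.28). Such intervals cover counting error only and hold no difference between cultures.

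Rara, the broadly expressed receptor, differed little at day 5. It stood at 12.77 FPKM in WT, 11.85 in KO, 13.45 in shCtrl and 14.68 in shMef2c. Its log2 ratio was -0.10 in KO over WT, and 0.12 in shMef2c over shCtrl.

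Rarb, the receptor gene with the DR5 printed above, was the scarcest of the 3 and was high in a single library. Its level was 3.56 FPKM in shCtrl (272 reads), against 1.25 in shMef2c (99 reads), 1.12 in KO (88 reads) and 1.08 in WT (86 reads). WT, KO and shMef2c were thus close together and shCtrl stood apart. The log2 ratio of shMef2c over shCtrl was -1.02, but it was 0.11 over WT, so the direction turned with the control library, and with TMM scaling it was -0.96, under 2-fold. The control libraries themselves differed by 1.13, the reads in shCtrl being 3.27 times the share in WT (2.55 to 4.21).

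These levels set the receptor makeup of each library. Of the summed Rara, Rarb and Rarg level, per length, Rarg held 46.9% in WT and 37.7% in shCtrl at day 5, against 66.8% in KO and 66.1% in shMef2c. At day 0 Rarg held 64.1% in WT, 78.1% in KO, 80.9% in shCtrl and 84.2% in the library labelled shMef2c. In each line the Rarg share was thus lower at day 5 than at day 0. The part of day 0 feeder fibroblast RNA in this difference was not tested. Rarb held 13.0% in shCtrl at day 5 and between 2.7% and 4.1% in the other day 5 libraries. At day 0 it held at most 0.5%.

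**Figure D2:**
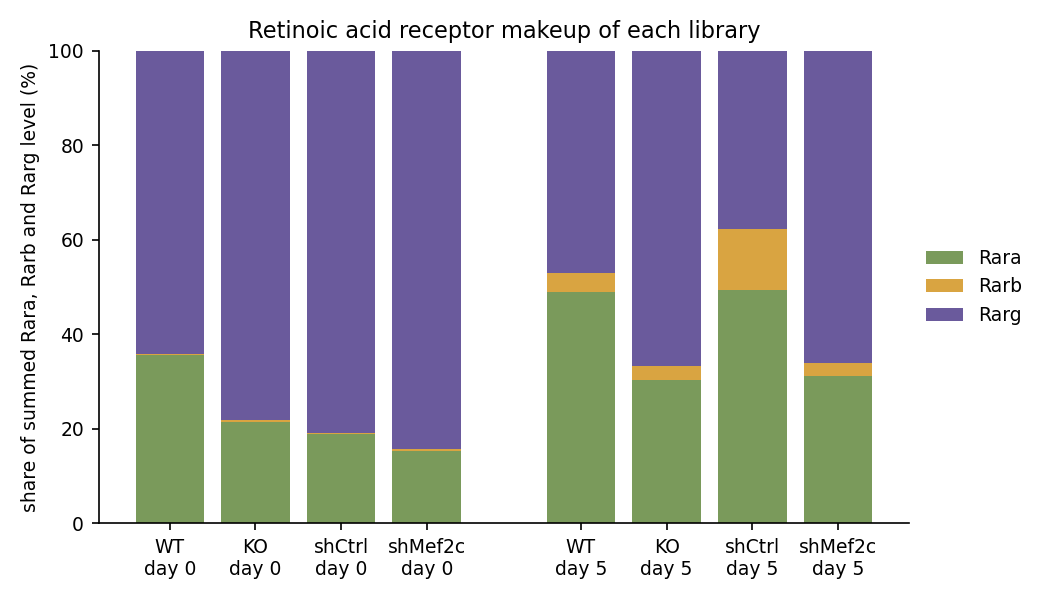
Share of the summed Rara, Rarb and Rarg level (vertical axis, percent of RPKM at day 0 and of FPKM at day 5) in each of the 8 libraries, 1 bar a library. At day 5 the Rarg share was 66.8% in KO and 66.1% in shMef2c, against 46.9% in WT and 37.7% in shCtrl.

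At day 5 the carriers were the most abundant of the 9 genes. Crabp1, which binds retinoic acid in the cytoplasm and is strong in neural cells of the embryo, stood at 1634 FPKM in WT, 849.8 in shCtrl, 364 in KO and 156 in shMef2c at day 5. In WT it ranked 71 among all features by FPKM. Crabp2, which delivers retinoic acid to the receptors in the nucleus, stood at 464 FPKM in WT, 333 in shCtrl, 115 in KO and 65.0 in shMef2c. For both genes the order of the libraries was the same, WT, shCtrl, KO, shMef2c. The perturbed libraries lay below both controls, as for 30.9% of 12974 features. Both carriers kept a gap of 2-fold or more, as 1.09% of features did.

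Crabp1 had log2 ratios of -2.16 (KO over WT) and -2.44 (shMef2c over shCtrl). Its read share in KO was 0.222 times the WT share, and that of Crabp2 0.248 times (0.237 to 0.259). In shMef2c over shCtrl the log2 ratio of Crabp2 was -2.34 and its read share ratio 0.194 (0.183 to 0.206). The control libraries also differed, with shCtrl over WT at -0.94 for Crabp1 and -0.48 for Crabp2, so the choice of control moves the size but not the direction. Against shCtrl, KO had ratios of -1.22 for Crabp1 and -1.52 for Crabp2. Against WT, shMef2c had ratios of -3.38 and -2.82. The levels of Crabp1 and Crabp2 kept a similar proportion at day 5: Crabp1 was 3.52 times Crabp2 in WT, 3.16 in KO, 2.55 in shCtrl and 2.40 in shMef2c on the FPKM scale. The Crabp1 feature pools RefSeq transcripts with a transcript predicted by the authors.

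Aldh1a2, the gene of the retinoic acid forming enzyme, was scarce at day 5 and highest in shMef2c. Its level was 4.53 FPKM in shMef2c (264 reads), 1.70 in shCtrl (97 reads), 0.60 in KO (35 reads) and 0.51 in WT (30 reads). No difference between WT and KO was detectable at this depth (read share ratio 1.18, interval 0.705 to 1.99), and their mean was under the filter. The log2 ratio of shMef2c was 1.03 over shCtrl and 1.87 over WT. The mesoderm marker sum was 127.0 FPKM in shMef2c, 45.6 in WT, 40.8 in shCtrl and 3.3 in KO. The part of mesoderm cells in the Aldh1a2 level was not tested. The other Aldh1a enzyme genes, Aldh1a1, Aldh1a3 and Aldh1a7, stayed at 0.85 FPKM or less in all 4 day 5 libraries.

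Dhrs3, whose product lowers retinoic acid by returning its precursor to retinol, was higher in both perturbed lines. It stood at 1.56 FPKM in WT (61 reads), 1.99 in shCtrl (75 reads), 3.82 in KO (149 reads) and 5.47 in shMef2c (206 reads). Dhrs3 was thus above both controls in both perturbed libraries, as were 26.3% of 12974 features, with a gap under 2-fold. Its log2 ratio in KO over WT was 0.91, under 2-fold (1.24 with a pseudocount of 0.1), and in shMef2c over shCtrl 1.11. On read shares the ratios were 2.47 (1.83 to 3.39) and 2.68 (2.05 to 3.54). For the 20 measured genes that lie next to Dhrs3 on chromosome 4, 10 on each side in gene order, the median log2 ratio was 0.51 in KO over WT, and in shMef2c over shCtrl it was 0.60. Of these neighbours, 2 and 8 were 2-fold or more higher and none lower. Over all features 4.05% and 4.49% were higher, and 3.26% and 4.78% lower. All measured features of chromosome 4 had medians of -0.02 and -0.04.

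Cyp26a1, the gene of the main early retinoic acid hydroxylase and the second with a DR5, differed more between the control libraries than between either perturbed line and its own control. It stood at 8.67 FPKM in WT, 13.36 in KO, 33.34 in shCtrl and 27.73 in shMef2c. WT and KO were thus low, and shCtrl and shMef2c high. KO over WT gave a log2 ratio of 0.57 and shMef2c over shCtrl one of -0.26, against 1.83 for shCtrl over WT. With the control libraries exchanged, KO stood at -1.26 over shCtrl and shMef2c at 1.57 over WT, so both directions turned. Rarb was likewise highest in shCtrl, although it was not high in shMef2c.

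The related hydroxylase genes Cyp26b1 and Cyp26c1, known for restricted domains of the hindbrain and limb, behaved otherwise than Cyp26a1. Cyp26b1 stood at 19.64 FPKM in WT, 21.17 in shCtrl, 4.87 in KO and 0.74 in shMef2c. Cyp26c1 stood at 8.08, 6.09, 1.04 and 0.62 FPKM in the same order. Both genes were lower in both perturbed libraries than in both controls, as were 30.9% of 12974 features. The log2 ratios of KO over WT were -1.81 for Cyp26b1 and -2.15 for Cyp26c1, and those of shMef2c over shCtrl were -3.67 and -2.13. As a share of the summed Cyp26 level per length, Cyp26a1 made up 23.8% in WT, 55.0% in shCtrl, 69.3% in KO and 95.3% in shMef2c. The summed level was 36.39 FPKM in WT, 60.60 in shCtrl, 19.27 in KO and 29.09 in shMef2c.

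**Figure D3:**
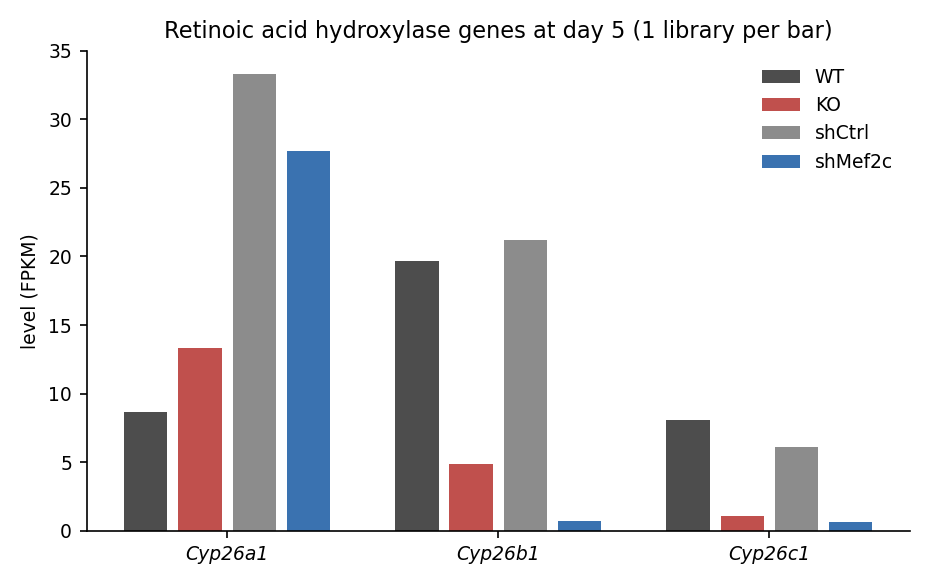
Level of the 3 Cyp26 genes at day 5 (vertical axis, FPKM), 1 bar a library. Cyp26a1 was high in shCtrl (33.34) and shMef2c (27.73), while Cyp26b1 and Cyp26c1 were low in KO and shMef2c.

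Nr2f2, an orphan nuclear receptor gene that responds to retinoic acid and patterns mesenchyme and brain, was lower in shMef2c and, by less, in KO. It stood at 9.16 FPKM in WT, 9.98 in shCtrl, 5.47 in KO and 1.57 in shMef2c. The controls were close to each other. Both perturbed libraries lay below both controls, as for 30.9% of 12974 features. KO over WT gave a log2 ratio of -0.65 and shMef2c over shCtrl one of -2.10, against 0.11 between controls. Its read share in shMef2c was 0.157 times that in shCtrl (0.133 to 0.185). Its paralog Nr2f1 was more abundant per length in 3 of the 4 libraries. It was 4.59 times the Nr2f2 level in WT, 3.52 times in shCtrl, 2.45 times in KO and 0.911 times in shMef2c.

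Counted over the 9 genes at day 5, KO over WT had 3 of 8 measured genes 2-fold or more apart, with Rarg higher and Crabp1 and Crabp2 lower. Of all 12832 features measured in that pair, 7.31% were 2-fold or more apart (4.05% higher, 3.26% lower). For shMef2c over shCtrl 7 of 9 were 2-fold or more apart, 3 higher (Rarg, Dhrs3, Aldh1a2) and 4 lower (Crabp1, Crabp2, Nr2f2, Rarb), against 9.26% of 13041 features (4.49% higher, 4.78% lower). Between the controls 2 of 9 (Rarb and Cyp26a1) were higher in shCtrl, against 0.996% of 12845 features (0.724% higher, 0.272% lower). With the control libraries exchanged, 5 of 9 were apart in KO over shCtrl (10.2% of 13041 features) and 7 of 9 in shMef2c over WT (7.21% of 12844). Over the measured genes the median was -0.04 (log2) in KO over WT, where all features had 0.00, and of -0.26 in shMef2c over shCtrl, where all features had -0.05. In both of these comparisons Rarg and Dhrs3 lay above 0, and Crabp1, Crabp2 and Nr2f2 below it. Rara, Rarb and Cyp26a1 lay on different sides of 0 in the 2 comparisons. Since the 9 genes were chosen with earlier results of these data known, their counts beside all features are a description.

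KO and shMef2c are different perturbations and no replicates of each other, but both lay on the same side of both controls for 5 of the 9 genes, Rarg and Dhrs3 above and Crabp1, Crabp2 and Nr2f2 below. That share was near the background, since 57.2% of 12974 features did so (26.3% above, 30.9% below). With a gap of 2-fold or more between the nearest libraries, 3 of 9 genes were left (Rarg above, Crabp1 and Crabp2 below), against 2.44% of features (1.34% above, 1.09% below). The authors' deposited table for KO over WT lists 4 of the 9 genes (Rarg, Dhrs3, Crabp1, Crabp2), beside 2253 of all 21069 features (10.7%). The authors' deposited table for shMef2c over shCtrl lists 7 of 9, beside 2758 features (13.1%). These tables rest on the same libraries and FPKM values.

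**Figure D4:**
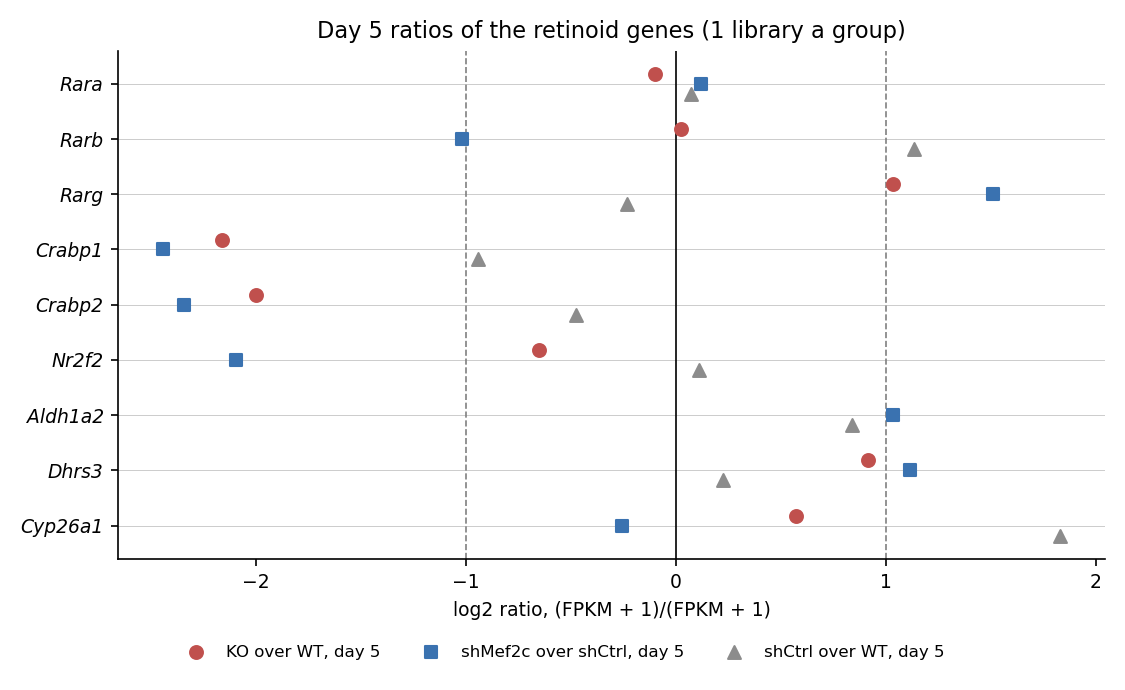
Log2 ratio of (FPKM + 1) at day 5 (horizontal axis) for the 9 retinoid genes (rows) in 3 comparisons of single libraries, with dashed lines at 2-fold. Crabp1 lay at -2.16 in KO over WT and -2.44 in shMef2c over shCtrl, with Crabp2 close to it, and Cyp26a1 differed most between the control libraries (1.83). Aldh1a2 has no point for KO over WT, where its mean was under 1 FPKM.

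At day 0 only 5 of the 9 genes (Rara, Rarg, Crabp1, Crabp2, Dhrs3) passed the filter. Rarg was the most abundant, at 42.14 RPKM in WT, 51.50 in KO, 66.32 in shCtrl and 79.51 in the library labelled shMef2c. Crabp1 followed at 29.64 in WT, 47.08 in KO, 22.43 in shCtrl and 24.12 in the library labelled shMef2c. Rara stood at 23.36 RPKM in WT and between 14.15 and 15.42 in the other 3 libraries, so that its highest level was 1.65 times its lowest, against 1.24 times at day 5. None of the 5 genes was 2-fold or more apart in KO over WT (2.93% of 12002 features were), in the library labelled shMef2c over shCtrl (0.231% of 12103) or in shCtrl over WT (1.27% of 11921).

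The carriers of the KO line went in opposite directions at day 0, with counts far lower than at day 5. Crabp2 stood at 3.08 RPKM in KO (55 reads), 6.81 in WT (125 reads), 7.83 in shCtrl (143 reads) and 10.50 in the library labelled shMef2c (191 reads). KO was the lowest for Crabp2 and the highest for Crabp1. The log2 ratios of KO over WT were 0.65 for Crabp1 and -0.94 for Crabp2, and over shCtrl they were 1.04 and -1.11, both past 2-fold (1.80% of 12006 features). Dhrs3 stood at 1.66 RPKM in WT and 3.50 in KO, a log2 ratio of 0.76, with 2.65 in shCtrl and 2.91 in the library labelled shMef2c. KO was thus above WT for Dhrs3 at day 0 as at day 5.

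The other 4 genes were under the filter at day 0. Cyp26a1 stood between 0.13 and 0.19 RPKM (4 to 6 reads) and Rarb between 0.21 and 0.47 (14 to 27 reads). Nr2f2 stood between 0.42 and 0.95 (37 to 81 reads), and Aldh1a2 between 0.47 and 1.04 (22 to 49 reads). For Cyp26a1 no difference between lines was detectable at this depth, the read share ratio of KO over WT being 0.685 (0.142 to 2.89). Feeder fibroblast RNA was present at day 0. The summed RPKM of 8 fibroblast markers was 204.7 in WT, 190.5 in KO, 210.8 in shCtrl and 345.9 in the library labelled shMef2c, all 8 being at 1 RPKM or more in each. Rarb, Nr2f2, Rarg and Crabp2 were highest in that same library, and the part of feeder RNA in their level was not tested. Rara, Crabp1, Cyp26a1, Dhrs3 and Aldh1a2 were highest in another library. At day 5 the sums of the fibroblast markers lay between 14.7 and 19.3 FPKM.

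From day 0 to day 5, the carriers and Cyp26a1 were higher in all 4 lines. The day 5 and day 0 tables were made separately, so the median over the shared genes was subtracted from the log2 ratios of each line. Crabp1 had a centred ratio of 5.72 in WT, 5.11 in shCtrl, 2.91 in KO and 2.68 in shMef2c. For Crabp2 it was 5.88 in WT, 5.17 in shCtrl, 4.82 in KO and 2.56 in shMef2c. Cyp26a1 had ratios of 3.04 in WT, 3.66 in KO, 4.78 in shCtrl and 4.67 in shMef2c. So the carriers differed from day 0 most in the control lines, and Cyp26a1 most in the hairpin lines.

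Nr2f2 had centred day 5 over day 0 ratios of 2.82 in WT, 2.65 in shCtrl, 1.88 in KO and 0.44 in shMef2c. Rarg was lower at day 5 in every line, with ratios of -1.72 in WT, -2.65 in shCtrl, -0.97 in KO and -1.29 in shMef2c. Feeder fibroblast markers were far lower at day 5 than at day 0, which centring does not remove. The part of feeder RNA in the ratios between days, Rarg included, was not tested. Rara stayed within 2-fold in all 4 lines, with its lowest ratio of -0.84 in WT. In WT 4 of 7 measured genes were 2-fold or more higher at day 5 and 1 lower, where 30.0% of features were apart (15.3% higher, 14.7% lower). In KO 4 of 7 were higher and none lower (19.9% of features, 10.1% higher and 9.79% lower). In shCtrl 5 of 9 were higher and 1 lower (30.6%, with 15.3% each way), and in shMef2c 4 of 8 were higher and 1 lower (18.9%, with 9.37% higher and 9.50% lower). The gene that was lower was Rarg each time. Cyp26a1 and Nr2f2, and Rarb and Aldh1a2 where measured, were under 1 RPKM at day 0 and passed the filter only through day 5. They could count as higher but not as lower, so the counts of higher genes are partly set by the filter.

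A list of 58 further genes of the pathway, all found in the files, places the 9 in context. It was chosen with earlier results of these data known. For KO over WT at day 5, 37 passed the filter, 3 were 2-fold or more higher and 9 lower, beside 7.31% of all features in either direction. For shMef2c over shCtrl 41 passed, 6 were higher and 8 lower, beside 9.26%. Between the controls 40 passed, 3 were higher and none lower, beside 0.996%. The medians were -0.25, -0.06 and -0.02.

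The measured partners of the receptors and the measured co-regulators lay within 2-fold on the log2(FPKM + 1) scale. Of the RXR genes Rxra, Rxrb and Rxrg, none that passed the filter was 2-fold apart in either comparison. Rxrg was under the filter in KO over WT. The largest value among them was 0.66 for Rxrg in shMef2c over shCtrl, at 2.28 FPKM against 1.07, where its read share ratio was 2.24 (1.62 to 3.13). Of the 9 co-regulators, 8 were measured in KO over WT and 7 in shMef2c over shCtrl, and none of these was past 2-fold. Ncoa3, a coactivator of nuclear receptors, came nearest, with log2 ratios of 0.96 (KO over WT) and 0.98 (shMef2c over shCtrl). Its read share ratios were past 2, at 2.04 (1.93 to 2.16) and 2.11 (1.98 to 2.25), and in KO over shCtrl its log2 ratio was 1.34. The authors' deposited tables list Ncoa3 in both comparisons and Rxrg in shMef2c over shCtrl. Of the 20 storage and formation genes, 7 passed the filter in each comparison and none was past 2-fold. Dhrs4 was the farthest, at -0.86 for KO over WT (10.64 FPKM against 20.19).

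Among the other carriers, 2 of 5 measured genes were higher and 2 lower for KO over WT (4.05% and 3.26% of all features). For shMef2c over shCtrl it was 2 of 6 each way (4.49% and 4.78%). Between the controls 2 of 5 were higher in shCtrl and none lower (0.724% and 0.272%). Rbp4, the retinol carrier of blood, and Ttr, its partner protein, are themselves among the 6 endoderm markers, so they give no check of that list. Ttr stood at 0.51 FPKM in WT, 22.68 in KO, 3.97 in shCtrl and 0.71 in shMef2c. Rbp4 stood at 3.16, 22.93, 30.19 and 4.55 FPKM in the same order. For both genes KO and shCtrl were above WT and shMef2c. Stra6, the membrane receptor that takes up retinol and is itself induced by retinoic acid, was high only in shMef2c, at 11.07 FPKM against 3.04 in WT, 2.60 in KO and 2.99 in shCtrl.

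Genes known to respond to retinoic acid went both ways. Of 17, 13 were measured for KO over WT, with 1 higher and 5 lower (4.05% and 3.26% of all features), and 16 for shMef2c over shCtrl, with 4 higher and 4 lower (4.49% and 4.78%). Nr2f1, a nuclear receptor gene of neural patterning, had log2 ratios of -1.58 (KO over WT) and -3.89 (shMef2c over shCtrl). Stra8, a meiosis gene first found as induced by retinoic acid, had ratios of 3.52 and 2.05. Hoxb1, which marks a hindbrain segment, stood at 17.58 FPKM in WT, 1.89 in KO, 12.35 in shCtrl and 10.56 in shMef2c. Hoxb1 was thus low in KO and within 2-fold among the other libraries.

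**Figure D5:**
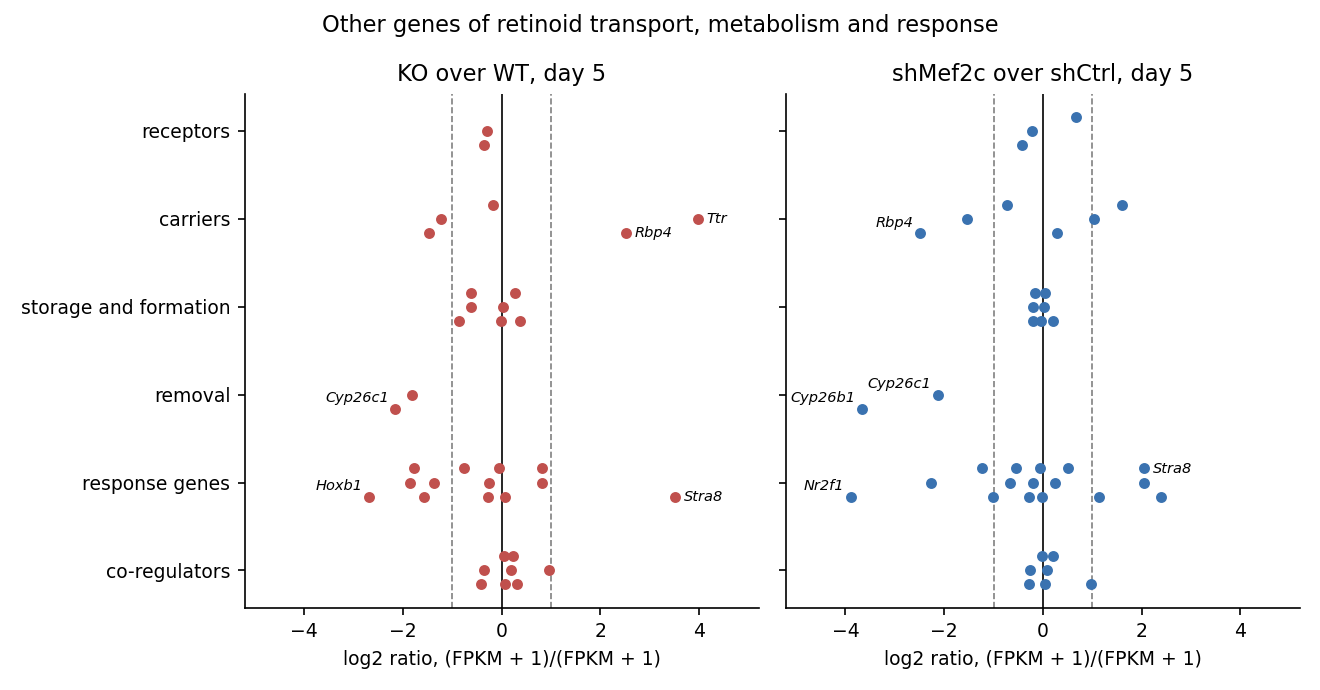
Log2 ratio of (FPKM + 1) at day 5 (horizontal axis) for each measured gene of the wider retinoid list, in rows by role, with KO over WT (left) and shMef2c over shCtrl (right); 1 point is 1 gene, dashed lines mark 2-fold, and genes described in the text are named where they lie far from 0. On this scale receptors, storage and formation genes and co-regulators lay within 2-fold, while both Cyp26 genes lay below it.

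The features whose day 5 profile was nearest to each gene were found by the root mean square difference of log2(FPKM + 1) over the 4 libraries, each profile centred on its own mean, among 981 features with a mean of 5 FPKM or more and a span of 1 or more. With 4 libraries many genes share a profile, so these names are a description. Crabp1 had Crabp2 as its nearest feature (0.23), followed by Irx2 (0.25) and Pantr1 (0.35). Crabp2 was nearest to Irx2 (0.18), Tmsb4x (0.22) and Lrrc4b (0.22). Rarg was nearest to Fgfbp1 (0.02), Klf9 (0.03) and Manba (0.08), and Dhrs3 to Dcaf12l1 (0.06), Tuba4a (0.06) and Atf7ip2 (0.10). Nr2f2 was nearest to the homeobox and Sox genes Sox21 (0.10) and Irx5 (0.12), with Mn1 (0.14). Rarb was nearest to Krt8 (0.10), Smim14 (0.15) and Krt18 (0.16), all highest in shCtrl. Aldh1a2 was nearest to Eras (0.16), Mapk13 (0.17) and the endoderm gene Sox17 (0.21). Cyp26a1 had Fzd5 (0.25), Spink1 (0.25) and Crb3 (0.30), which like Cyp26a1 were higher in the hairpin lines. Rara spanned 0.29 and was left out.

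Chromosome neighbours were taken from the gene order of RefSeq. Rarb lies on chromosome 14, whose 436 measured features had a median log2 ratio of -0.28 for KO over WT. The 20 measured neighbours of Rarb had a median of -0.02, close to the 0.03 of Rarb itself. For the 7 genes other than Dhrs3 and Rarb, neighbour medians lay between -0.11 and 0.26 in KO over WT and between -0.30 and 0.15 in shMef2c over shCtrl. The neighbours of Crabp1 on chromosome 9 had medians of 0.12 and -0.16, and those of Crabp2 on chromosome 3 had 0.17 and 0.11, far from the ratios of these genes.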

How the data were processed

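Poly(A)-selected RNA of 8 cultures was sequenced, 1 library per group, and the labels gave the groups. For day 5 the authors deposited expected counts and FPKM per gene for each library, per the file headers. A feature missing from a library's file (each lists only 0.01 FPKM and above) was set to 0. For day 0 the authors deposited 1 table of RPKM and estimated read counts, per the file headers. Their comparison tables for day 5 hold a deposited log2 ratio and a false discovery rate (adjusted p-value) per gene, made by a Poisson method per the labels. RSEM, Bowtie, Bowtie2, HISAT, HISAT2 and the build mm9 are named, without roles, in the submitters' processing notes. Whether counting used strand is not stated there, so reads of overlapping or antisense genes cannot be told apart.

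From these values, log2 ratios with a pseudocount of 1, a filter at a mean of 1 over the pair and a 2-fold threshold were computed (Python 3.11.15, scipy 1.17.1). The pseudocount makes ratios of scarce genes smaller than the ratios of their values. Estimated counts were rounded for exact 95% intervals on read shares, which cover counting error only. TMM factors (edgeR 4.0.16) and size factors (DESeq2 1.42.0) served as alternative scalings, beside a pseudocount of 0.1, no filter, a filter at 5, the other control library, no centring and, for days, TPM over the 17363 shared genes. Sequences, gene order and chromosomes are RefSeq's on GRCm38.p6, which is not the build named for the files, so no coordinates of the measured features are given.

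All 9 genes are named, with up to 3 of the wider list per role by largest ratio. Further genes of that list (Bhlhe40, Cdx1, Aldh1a1, Aldh1a3, Aldh1a7) were chosen after their values were seen. One further gene of the wider list enters its counts and is not reported here. The members and lists were chosen with earlier results of these data known.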

Additional observations from a re-analysis of the deposited data

How the results depend on the processing

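Of 54 recomputed counts of retinoid genes 2-fold or more apart, 48 stayed within 1.5 times the reported count. With shCtrl as the control library, the count for KO was 5 in place of 3 at day 5 (1 higher, 4 lower) and 2 in place of 0 at day 0. With a pseudocount of 0.1 the day 0 count for KO over WT was also 2. A filter at a mean of 5 gave 4 in place of 7 for shMef2c over shCtrl at day 5, 1 in place of 2 for shCtrl over WT at day 5 and 3 in place of 5 for day 5 over day 0 in WT, since fewer genes were measured. Of 364 recomputed single ratios, 1 that was past 2-fold changed sign: Rarb for shMef2c at day 5, 0.11 with WT as control. That ratio was also under 2-fold with TMM factors (-0.96) and DESeq2 size factors (-0.97). A further 43 single ratios were classed as moved and 320 as the same. Among those that moved, with a pseudocount of 0.1, were day 5 over day 0 ratios in WT. Cyp26a1 was then at 5.05 in place of 3.04, and Nr2f2 at 4.13 in place of 2.82. Dhrs3 for KO over WT at day 5 was past 2-fold with a pseudocount of 0.1 (1.24). Counts of all features 2-fold or more apart moved by over 1.5 times as follows. With a pseudocount of 0.1 they were 1459 in place of 938 (KO over WT) and 330 in place of 128 (shCtrl over WT) at day 5, and 653 in place of 352, 93 in place of 28 (shMef2c over shCtrl) and 304 in place of 151 at day 0. With a filter at 5 they were 502, 623 (shMef2c over shCtrl, in place of 1208) and 57 at day 5, 204, 7 and 83 at day 0, and between days 2394 in place of 3598 in WT, 1429 in place of 2387 in KO, 2446 in place of 3725 in shCtrl and 1409 in place of 2288 in shMef2c. With the other control library they were 216 for KO and 313 for shMef2c at day 0. Depth limits Cyp26a1 and Rarb at day 0 and Aldh1a2 in WT and KO at day 5, with 35 reads or fewer each. No paired analysis was possible because each group has 1 library and the labels give no replicate numbers (day 5 over day 0 ratios are within a line).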

Other observations

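In the stem cells of day 0, the proportion of the carriers set the KO line apart. Crabp1 was 15.3 times the level of Crabp2 per length in KO (55 Crabp2 reads), against 4.35 times in WT, 2.87 times in shCtrl and 2.30 times in the library labelled shMef2c. At day 5 the same proportion lay between 2.40 and 3.52 in all 4 lines. The part of feeder RNA in the day 0 proportions was not tested.

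Stra8, listed among the response genes, was present before differentiation, at 12.94 RPKM in WT, 23.55 in KO, 4.17 in shCtrl and 6.36 in the library labelled shMef2c. KO was the highest library for Stra8 at both days, with 22.70 FPKM at day 5 beside 1.07 in WT. Cdx1, a caudal homeobox gene that responds to retinoic acid and Wnt signals, stood at 5.22 RPKM in WT at day 0 and at 16.07 to 27.68 in the other lines. At day 5 it was at 5.70 FPKM in shMef2c and at 0.74 or less in the other lines. Bhlhe40, a stress and clock gene found as induced by retinoic acid, stood at 9.23 RPKM in KO at day 0 against 18.09 in WT, and between 2.28 and 2.44 FPKM in all 4 lines at day 5.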
